A study of Mus musculus with 4 samples.

Results

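The 8 genes described here encode the MHC class II antigen presentation machinery, and they were taken by symbol from a table of 56748 genes counted in mouse lungs bearing 4T1 breast cancer. All 8 were among the 15320 genes that passed the filter on low counts. They are the transactivator Ciita, the classical chain genes H2-Aa, H2-Ab1 and H2-Eb1, the invariant chain gene Cd74, the peptide exchange genes H2-DMa and H2-DMb1, and H2-Oa, which encodes a chain of the regulator of that exchange. Female BALB/cJ mice were injected through the tail vein at 7 weeks of age with 4T1-FLuc cells, a mouse triple-negative breast cancer line that carries luciferase, so both groups carried tumor. The saline group (2 samples, also labeled PBS control) was compared with the ADC/cmLumiOpto group (2 samples), which received an antibody against CD276 linked to the microtubule inhibitor DM1 together with the mitochondria-depolarizing gene therapy cmLumiOpto. The labels give the treatment as cmLumi-Olap and CD276-DM1 at 16 mg/kg, whereas the study's methods give a lower ADC dose and do not mention Olap. The labels speak of harvested tumor cells and the methods of lung tissue, and the methods give more samples per group than were analysed here. Both epithelial tumor markers and lung surfactant genes were read in every sample, with Krt8 between 1117 and 1543 CPM and Sftpc between 174 and 4321 CPM, where CPM is the count scaled by the TMM-normalized library size. Seeding through the tail vein places tumor in the lung without a primary tumor, and the labels do not name the animal behind each sample, so the p-values measure only the spread between these samples.

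MHC class II molecules are pairs of an alpha and a beta chain that present peptides from the endosomal pathway to CD4+ T cells. Dendritic cells, B cells and macrophages are the main cells that carry them, and alveolar type 2 cells of the lung do so as well. The invariant chain occupies the peptide groove until it is degraded, H2-DM then exchanges its last fragment for antigenic peptide, and H2-O holds H2-DM back. Transcription depends on CIITA, which binds no DNA itself but is recruited by RFX, CREB and NF-Y proteins to the X and Y boxes upstream of the class II genes. Interferon-gamma induces Ciita in many cell types.

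The X and Y boxes are shown because they are the sequence feature through which 1 member, Ciita, is known to act on the others. RefSeq promoter windows (GRCm38.p6) were found for 5 of the 8 members, and the 250 bases upstream of each start were searched on both strands for an X box pattern and for the Y box core CCAAT. The X box pattern can be read from the matches below, with any base allowed at the third, the fourth and the seventh place, and it shares no letters with the Y box core in these windows. Capitals mark the matches, each sequence is written 5′ to 3′ on the strand of its gene, and a Y box core on the opposite strand reads ATTGG.
H2-Eb1, X and Y, chr17:34305760-34305851, plus strand: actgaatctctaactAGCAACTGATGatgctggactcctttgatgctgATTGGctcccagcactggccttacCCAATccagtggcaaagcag
H2-DMb1, X, chr17:34153087-34153116, plus strand: ggtttacctAGTAACTGATGatgctaggct
H2-DMb1, Y, chr17:34153118-34153147, plus strand: attcactcagtgATTGGtctgacctgccta
H2-Oa, X, chr17:34092229-34092258, plus strand: gaaaggtgaAGTGACAGATGacccatggcc
H2-Oa, Y, chr17:34092324-34092353, plus strand: agaactgctctgATTGGctgcttaccgcaa
H2-Aa, Y, chr17:34287852-34287886, minus strand: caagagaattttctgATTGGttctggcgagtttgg

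H2-Eb1 held the X pattern 92 bases and ATTGG 59 bases upstream of its RefSeq start, with a further CCAAT 35 bases upstream. H2-DMb1 held the X pattern and ATTGG 95 and 61 bases upstream of its own. Both stretches of H2-DMb1 and the Y stretch of H2-Oa do not lie wholly upstream of the gene start in GENCODE M21. The first bases of the X match and of ATTGG were thus 33 apart in H2-Eb1 and 34 apart in H2-DMb1, against 98 in H2-Oa. H2-Aa held only a Y match, 48 bases upstream, and of the 2 windows of H2-DMa 1 held no match and the other held a Y match 198 bases upstream. None of the 5 genes held the X2 box pattern TGACGCA on either strand. Of 32851 promoter windows of the same length, 33.8% held the Y box core, 0.816% the X box pattern, 1.75% the X2 box pattern and 0.292% both the X box pattern and the Y box core. A match is a description of letters, and its absence says only that these letters are not in this window.

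The samples held between 15263375 and 19675436 counts in total, and a floor of 3 counts lay between 0.146 and 0.202 CPM, for counting error only. With edgeR's quasi-likelihood test and Benjamini-Hochberg adjustment, 0 of 15320 genes (0%) had an adjusted p under 0.05, and 3553 (23.2%) had an unadjusted p under 0.05. The edgeR exact test called 1170 genes (7.64%) and DESeq2 called 1353 (8.83%). With 2 samples against 2, an exact permutation test of a single value cannot give a two-sided p under 0.333.

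None of the 8 class II genes passed the test, at an adjusted p (edgeR's quasi-likelihood test) or at an unadjusted p under 0.05, and neither the exact test nor DESeq2 called any of them. The fitted fold changes, ADC/cmLumiOpto over saline, were between 1.78 and 1.97 for the classical chains H2-Eb1, H2-Ab1 and H2-Aa, 1.40 for Cd74, 1.24 and 1.18 for H2-DMa and H2-DMb1, 1.04 for Ciita and 0.790 for H2-Oa. In all 8 genes the values of the groups overlapped. Over all tested genes, both treated samples lay above both saline samples in 28.1% and below them in 28.8%. The median log2 fold change of the members was 0.40, against 0.03 over all tested genes, and 7 of 8 lay above 0, against 52% of all tested genes. Between the highest and the lowest sample the same genes differed by up to 5.45-fold, and the first-numbered sample was the higher in each group for all members but H2-Oa. In a bulk sample, fewer cells that express a gene and less RNA of it per cell cannot be told apart.

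Ciita (ENSMUSG00000022504, chromosome 16, 10297923 to 10346282) encodes the transactivator of the class II genes. Positions of genes are those listed with the counts, which for all 8 members differ from GRCm38, the build named in the methods, while the submitters' processing notes name mm39. Ciita was at 47.6 and 31.7 CPM in saline samples 1 and 2 and at 56.1 and 26.7 CPM in ADC/cmLumiOpto samples 1 and 2. The treated samples held both the highest and the lowest value. The group means were 39.7 ± 11.2 CPM (SD, n = 2) and 41.4 ± 20.8 CPM (SD, n = 2), and the log2 fold change was 0.06 ± 0.37 (SE, edgeR adjusted p = 0.941). Its 95% interval ran from -0.83 to 0.95, so a difference of either direction within these bounds remains possible with these samples. The Ciita model overlaps Dexi on the opposite strand, which had 38.5% as many counts, and the labels do not say whether the libraries kept the strand.

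**Figure D1:**
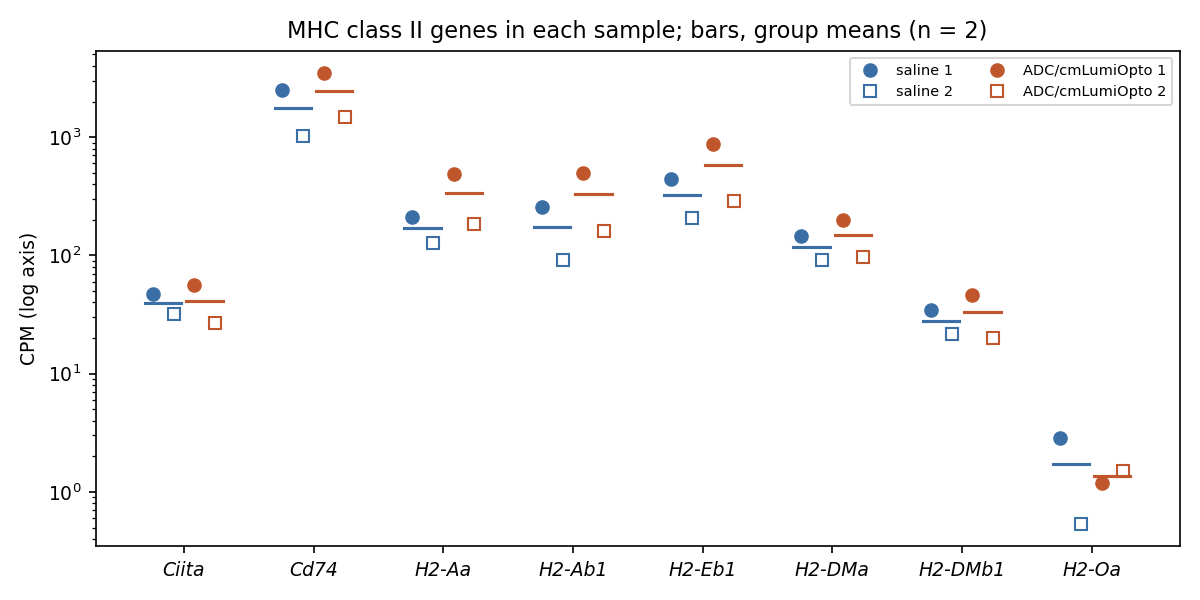
CPM (log axis) of the 8 class II genes in each sample, with circles for sample 1 and open squares for sample 2 of a group, saline in blue and ADC/cmLumiOpto in orange, and short lines at the group means of 2 samples. ADC/cmLumiOpto sample 1 is the highest for every gene but H2-Oa, and no gene has both treated samples above both saline samples.

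The classical chains form the I-A and I-E molecules that reach the cell surface. H2-Aa (ENSMUSG00000036594, chromosome 17, 34501718 to 34506797), the alpha chain of I-A, was at 211 and 128 CPM in the saline samples and at 483 and 185 CPM in the ADC/cmLumiOpto samples. ADC/cmLumiOpto sample 1 stood above the rest, while sample 2 lay between the saline samples. The means were 169 ± 59.0 CPM and 334 ± 211 CPM (SD, n = 2 each), and the log2 fold change was 0.98 ± 0.46 (SE, 95% interval -0.12 to 2.08). This was the smallest adjusted p among the members, 0.250 in edgeR's quasi-likelihood test.

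H2-Ab1 (ENSMUSG00000073421, chromosome 17, 34476663 to 34488393), the beta chain of I-A, was at 256 and 91.5 CPM in the saline samples and at 499 and 160 CPM in the ADC/cmLumiOpto samples. It had the widest range of the 8 genes, 5.45-fold, and the samples of 1 group already differed by 2.80-fold in saline and 3.11-fold after treatment. The log2 fold change was 0.92 ± 0.62 (SE, edgeR adjusted p = 0.403). H2-Eb1 (ENSMUSG00000060586, chromosome 17, 34524841 to 34535648), the beta chain of I-E, was at 443 and 206 CPM in the saline samples and at 870 and 287 CPM in the ADC/cmLumiOpto samples. The order of the samples was that of H2-Aa and H2-Ab1, and the log2 fold change was 0.83 ± 0.55 (SE, edgeR adjusted p = 0.396).

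H2-Ea, the alpha chain partner of H2-Eb1, is not one of the 8 genes, and BALB/c mice express it. It was at 462, 191, 884 and 290 CPM in saline samples 1 and 2 and ADC/cmLumiOpto samples 1 and 2. Its ratio to H2-Eb1 stayed between 0.925 and 1.04 in the 4 samples, so the transcripts of the I-E pair kept nearly 1 proportion while each varied by more than 4-fold. For the I-A pair, the ratio of H2-Aa to H2-Ab1 was 0.823 and 1.39 under saline and 0.970 and 1.15 after ADC/cmLumiOpto. Class II chain genes differ much between mouse strains, and reads from BALB/c tissue were aligned to a reference genome of another strain, the part of which in the levels was not tested.

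Cd74 (ENSMUSG00000024610, chromosome 18, 60936920 to 60945724) encodes the invariant chain, which is also a cell surface receptor for the cytokine MIF. It was at 2525 and 1019 CPM in the saline samples and at 3466 and 1488 CPM in the ADC/cmLumiOpto samples. The lowest treated sample lay below the highest saline sample, and the means were 1772 ± 1065 CPM and 2477 ± 1399 CPM (SD, n = 2 each). The log2 fold change was 0.48 ± 0.52 (SE, 95% interval -0.75 to 1.72, edgeR adjusted p = 0.601).

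H2-DMa and H2-DMb1 encode the alpha and a beta chain of H2-DM. H2-DMa (ENSMUSG00000037649, chromosome 17, 34338515 to 34358075) was at 145 and 91.8 CPM in the saline samples and at 198 and 97.0 CPM in the ADC/cmLumiOpto samples. H2-DMb1 (ENSMUSG00000079547, chromosome 17, 34372046 to 34379204) was at 34.3 and 21.8 CPM in the saline samples and at 46.2 and 19.9 CPM in the ADC/cmLumiOpto samples. Both genes were highest in ADC/cmLumiOpto sample 1, and their log2 fold changes were 0.32 ± 0.37 (SE) and 0.23 ± 0.41 (SE), with adjusted p of 0.632 and 0.761 in edgeR's quasi-likelihood test. The ratio of H2-DMa to H2-DMb1 was 4.23 and 4.20 under saline and 4.28 and 4.87 after ADC/cmLumiOpto. H2-DMb1 has a close copy, H2-DMb2, between which the counting could split reads, and H2-DMb2 had a log2 fold change of 0.26 ± 0.39 (SE, edgeR adjusted p = 0.714). The H2-DMa model overlaps Brd2 on the opposite strand, and Brd2 had 201% as many counts.

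H2-Oa (ENSMUSG00000024334, chromosome 17, 34311314 to 34314208) encodes the alpha chain of H2-O, which is found mainly in B cells and some dendritic cells. Its raw counts were 46 and 8 under saline and 21 and 31 after ADC/cmLumiOpto, or 2.88, 0.539, 1.19 and 1.51 CPM. The treated samples lay between the saline samples, and the log2 fold change was -0.34 ± 0.78 (SE, 95% interval -2.21 to 1.53, edgeR adjusted p = 0.822). H2-Ob, the beta chain of H2-O, had 8, 0, 22 and 11 counts and did not pass the filter. H2-Oa was the member that followed the others least. Its centered log2 CPM lay at a root mean square distance of 0.663 from the mean of the members over the 4 samples, against 0.0953 for Cd74.

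**Figure D2:**
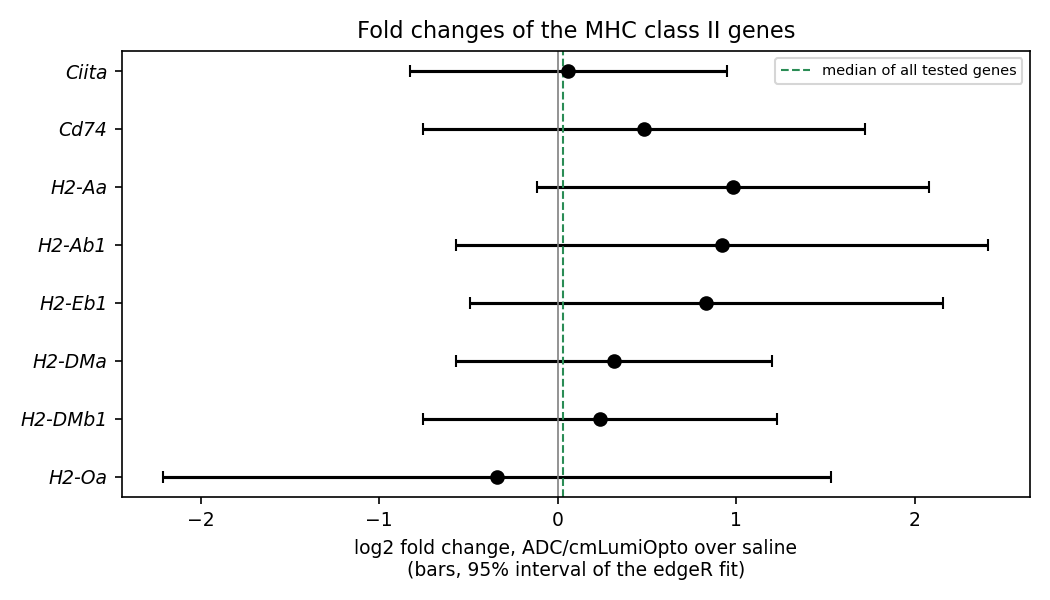
Log2 fold change of each class II gene, ADC/cmLumiOpto over saline, from the edgeR fit (points) with 95% intervals (bars), a grey line at 0 and a dashed line at the median of all tested genes, 0.03. The interval of every gene includes 0, and 7 of 8 reach above 1.

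Levels can be compared between genes only per length, as CPM per kilobase of the gene length listed with the counts. On this scale the median over the 4 samples was 1195 for Cd74, 188 for H2-Eb1, 81.2 for H2-Ab1, 52.1 for H2-Aa, 35.1 for H2-DMa, 16.7 for H2-DMb1, 4.16 for Ciita and 0.960 for H2-Oa. Cd74, from 607 to 2064 CPM per kilobase, lay above H2-Eb1 without overlap, as did H2-DMb1 above Ciita and Ciita above H2-Oa. The ranges of neighbors from H2-Eb1 down to H2-DMb1 overlapped between samples, while within each of the 4 samples these 5 genes kept the same order.

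The samples were ordered alike for most members. From high to low, the order was ADC/cmLumiOpto sample 1, saline sample 1, ADC/cmLumiOpto sample 2 and saline sample 2 for Cd74, H2-Aa, H2-Ab1, H2-Eb1 and H2-DMa, an order held by 4.35% of all tested genes. Ciita and H2-DMb1 had the same top samples but with the last places exchanged. The higher value fell to sample 1 in both groups in 7 of 8 members, against 25% of all tested genes. These orders were described after the values had been seen, and replicate numbers do not order samples of a group. The members' log2 range over the samples had a median of 1.84, against 0.72 over all tested genes.

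Leaving out single samples moved the members' fold changes across 0. Without saline sample 1, the median log2 fold change of the members was 1.30 and all 8 were above 0. It was 0.85 without ADC/cmLumiOpto sample 2 and 0.02 without saline sample 2. Without ADC/cmLumiOpto sample 1, it was -0.21 and only H2-Aa stayed above 0, at 0.14. H2-Aa was the 1 member with the same sign in all 4 of these fits, up to 1.51 without ADC/cmLumiOpto sample 2, and no member was called in any of them.

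**Figure D3:**
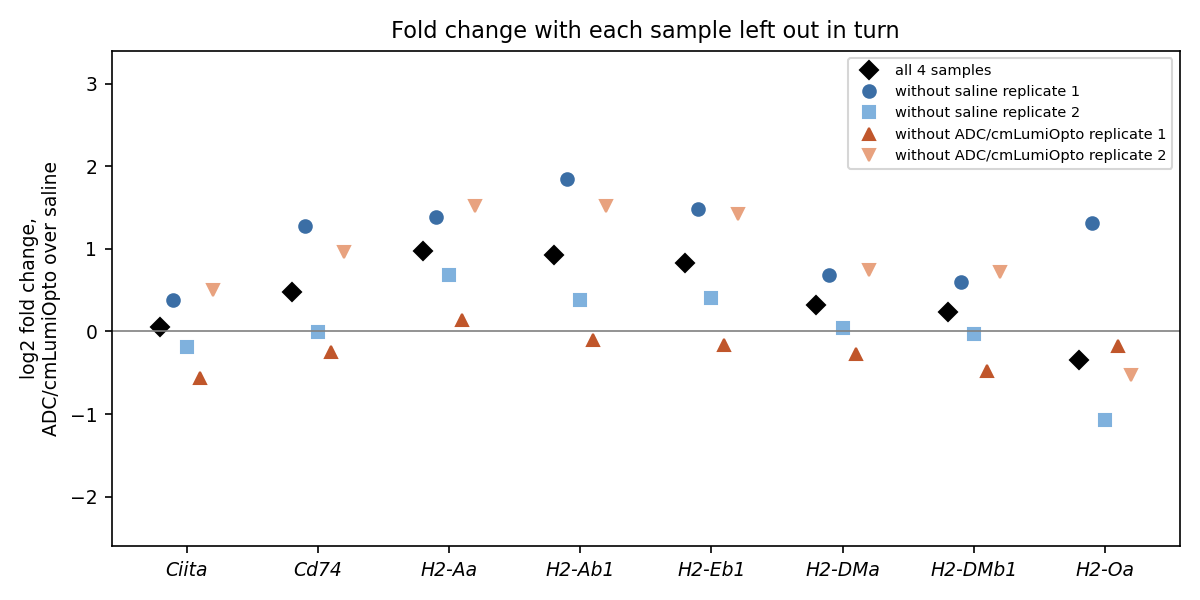
Log2 fold change of each class II gene with all 4 samples (black diamonds) and after omission of 1 sample at a time (colored symbols), with a grey line at 0. Only H2-Aa stays above 0 in every fit, between 0.14 and 1.51.

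Relative to Ciita in the same sample, 6 of the 7 other members were higher in both treated samples than in both saline samples. Over all tested genes this share was 13.5%, a comparison chosen after the values had been seen and given without a test. Ciita is itself a member and was higher in the first-numbered sample of each group, like all other members but H2-Oa. Dividing by Ciita takes out the spread that a gene shares with it. The 13.5%, over genes of every pattern, is therefore not a like comparison for these members. H2-Aa stood at 4.43 and 4.02 times the CPM of Ciita in the saline samples and at 8.62 and 6.93 times in the ADC/cmLumiOpto samples. H2-Eb1 stood at 9.31 and 6.50 times and at 15.5 and 10.8 times. H2-Ab1 stood at 5.39 and 2.88 times and at 8.89 and 6.02 times. The gap between the groups was smallest for H2-DMb1 and Cd74, at 53.1 and 32.1 times under saline and 61.8 and 55.8 times after treatment for Cd74 and at 0.720 and 0.688 times under saline and 0.823 and 0.748 times after ADC/cmLumiOpto for H2-DMb1. H2-Oa overlapped. Ciita has the longest model of the 8 genes, 9535 bases. With a smooth trend on length removed, the log2 fold change exceeded that of Ciita in 3 of 7 members, H2-Aa by 0.63, H2-Ab1 by 0.44 and H2-Eb1 by 0.26, whereas the difference from Ciita was -0.06 for H2-DMa, -0.13 for Cd74, -0.37 for H2-DMb1 and -0.94 for H2-Oa.

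**Figure D4:**
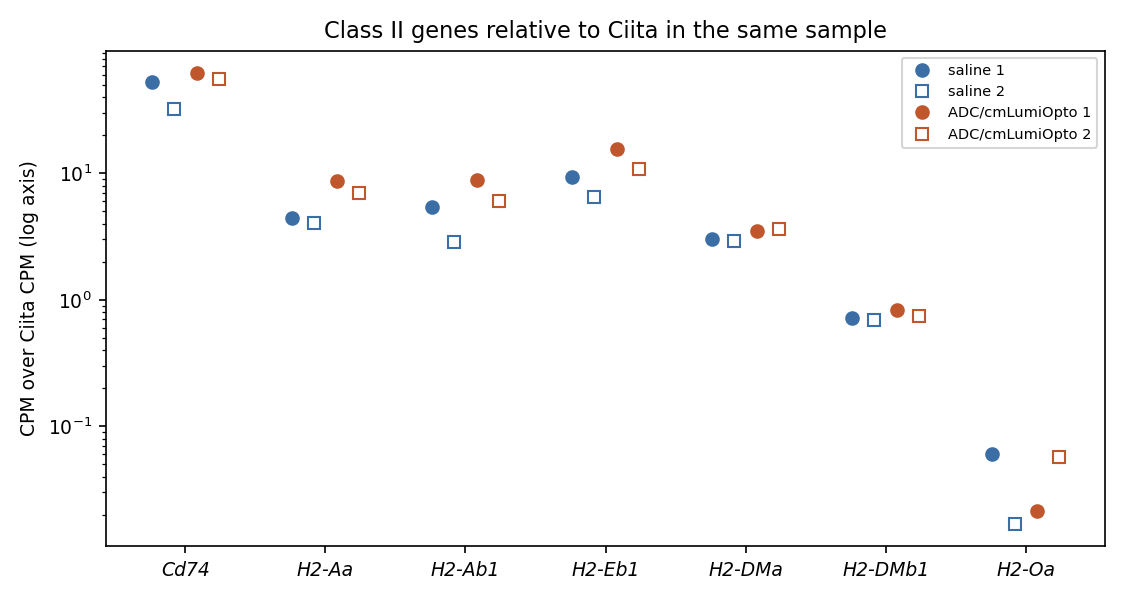
CPM of each of the other class II genes divided by the CPM of Ciita in the same sample (log axis), with circles for sample 1 and open squares for sample 2, saline in blue and ADC/cmLumiOpto in orange. Both treated samples lie above both saline samples for every gene but H2-Oa, with the widest gap for H2-Aa and the smallest for H2-DMb1 and Cd74.

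Cells that carry class II molecules were examined through marker lists, whose part in the class II values was not tested. The 9 dendritic cell markers summed to 66.3 and 28.5 CPM in the saline samples and to 118 and 78.2 CPM in the ADC/cmLumiOpto samples, and Cd209a and Siglech had no count in saline sample 2. Of 8 tested, 3 had an unadjusted p under 0.05, all higher, against 11% of all tested genes that were higher at this threshold. Clec9a, a receptor of cross-presenting dendritic cells, had a log2 fold change of 2.32 ± 0.74 (SE, edgeR adjusted p = 0.148). The 8 B cell markers summed to 12.0 and 5.39 CPM in the saline samples and to 13.9 and 13.0 CPM in the ADC/cmLumiOpto samples. The defining marker Ms4a1 had no count in saline sample 2, nor did Blk, and both had at most 17 counts elsewhere. Of the 5 tested, 4 had a log2 fold change above 0 and 2 an unadjusted p under 0.05, both higher. The smallest p in edgeR's quasi-likelihood test was that of Cd79b, with a log2 fold change of 1.51 ± 0.48 (SE, edgeR adjusted p = 0.151). Saline sample 2, the sample with the lowest value of 6 class II genes, was also the lowest in both lists. It was likewise the lowest in the T cell, neutrophil, endothelial and alveolar type 2 lists and for the pan-leukocyte gene Ptprc. This was not so for the macrophage and tumor epithelial lists.

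The 9 macrophage markers summed to 1419 and 1366 CPM in the saline samples and to 1693 and 1331 CPM in the ADC/cmLumiOpto samples, a narrower range than that of the class II sum. None of the 9 had an unadjusted p under 0.05, and 5 had a log2 fold change above 0 and 4 below. C1qb, with the smallest p, had a log2 fold change of 0.51 ± 0.24 (SE, edgeR adjusted p = 0.249). Single members of this list differed more, and Chil3, named after its values were seen, was at 115, 418, 41.7 and 162 CPM over the 4 samples. The 8 alveolar type 2 markers summed to 1769 and 518 CPM in the saline samples and to 5753 and 4955 CPM in the ADC/cmLumiOpto samples, without overlap between the groups, and Sftpc was the highest of the 8 in each sample. Sftpd, a surfactant protein, had a log2 fold change of 2.40 ± 0.44 (SE, edgeR adjusted p = 0.116). Abca3 and Etv5 of the same list, named after their values were seen, lay lower in both treated samples than in both saline samples, with log2 fold changes of -0.23 and -0.53. The 7 T cell markers summed to 28.8, 8.90, 65.7 and 29.7 CPM over the 4 samples, also without overlap between the groups, and 5 of 7 had the sample order of Cd74. The 7 neutrophil markers summed to 1157, 534, 1159 and 8047 CPM, so that ADC/cmLumiOpto sample 2 stood far above the rest, and the 6 tumor epithelial markers to between 2475 and 3022 CPM. Counts at an unadjusted p under 0.05 in edgeR's quasi-likelihood test were not particular to the dendritic and B cell lists. Higher at this threshold were 6 of 8 alveolar type 2, 6 of 7 neutrophil, 3 of 6 endothelial and 2 of 7 T cell markers, and Ptprc. Lower were 1 alveolar type 2 and 1 of 6 tumor epithelial markers. No marker passed edgeR's quasi-likelihood test at an adjusted p under 0.05. DESeq2 called 9 and the exact test 13 of the 57 tested markers, against 8.83% and 7.64% of all tested genes. Sftpd, Clec9a, Cd3d, Cldn5 and Ptprc were called by both.

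The sum of the 8 members was 3665 and 1591 CPM in the saline samples and 5620 and 2266 CPM in the ADC/cmLumiOpto samples. Divided by Ptprc, the gene of the pan-leukocyte protein CD45, it was 52.4 and 33.2 under saline and 53.5 and 13.0 after ADC/cmLumiOpto. The low value was that of the sample with the highest neutrophil markers, in which Ptprc reached 174 CPM. Divided by the dendritic cell list, it was 55.3 and 55.8 under saline and 47.7 and 29.0 after ADC/cmLumiOpto. Per dendritic cell, alveolar type 2 or T cell list, the class II sum was lower in both treated samples than in both saline samples. Cd74 made up most of this sum, which was between 1.45 and 1.62 times Cd74 alone. Per dendritic cell list, Cd74, Ciita, H2-DMa and H2-DMb1 were lower in both treated samples. The groups overlapped there for H2-Aa, H2-Ab1, H2-Eb1 and H2-Oa, with H2-Aa at 3.18 and 4.47 under saline and 4.10 and 2.36 after ADC/cmLumiOpto. Per T cell list, H2-Aa overlapped as well. Per macrophage list the sum was 2.58 and 1.16 under saline and 3.32 and 1.70 after ADC/cmLumiOpto. Per tumor epithelial list it was 1.39 and 0.526 against 2.18 and 0.915. Those groups overlapped, as they did per Ptprc and per B cell, neutrophil or endothelial list.

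**Figure D5:**
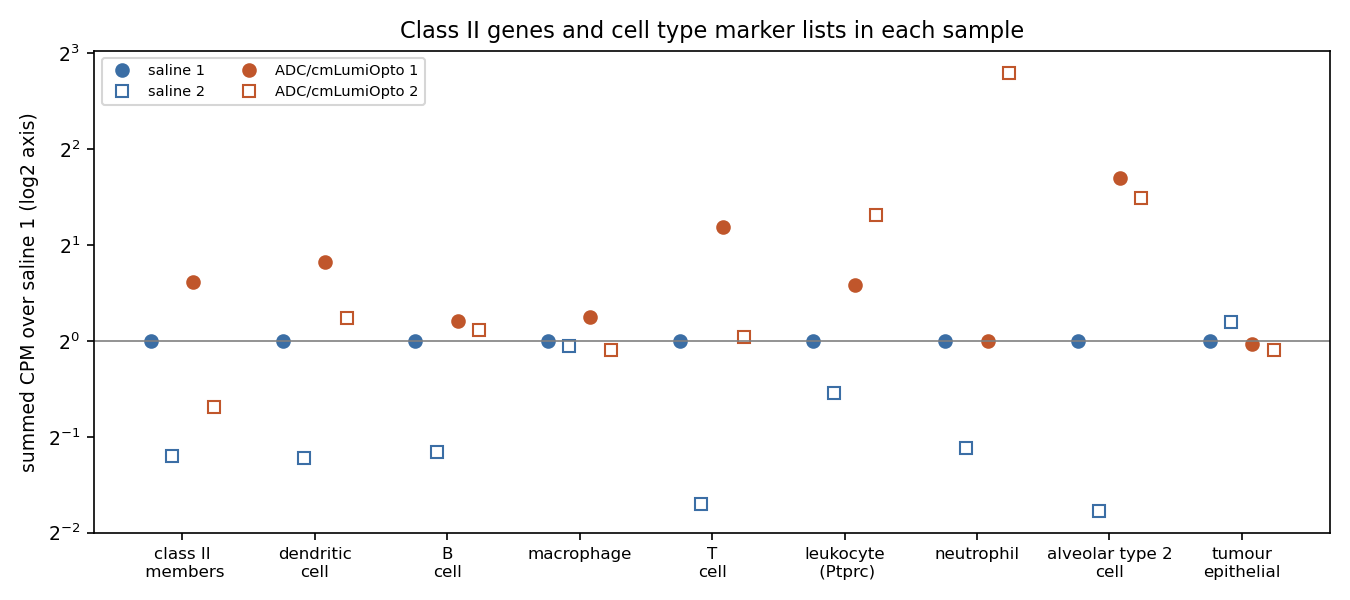
Summed CPM of the 8 class II genes and of each marker list except the endothelial one, divided by the sum in saline sample 1. The axis is log2 with a grey line at 1. Circles stand for sample 1 and open squares for sample 2, saline in blue and ADC/cmLumiOpto in orange. The neutrophil list stands apart in ADC/cmLumiOpto sample 2, and the dendritic cell, B cell, T cell and alveolar type 2 lists and Ptprc are higher in both treated samples than in both saline samples.

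Upstream of the class II genes, the 7 genes of the promoter-binding factors (the RFX subunits, the NF-Y subunits and Creb1) gave no call and none had an unadjusted p under 0.05. Their median log2 fold change was -0.04, and their summed CPM lay between 231 and 260. Of the 8 genes on the path from interferon-gamma to Ciita, 0 passed at an adjusted p and 2 had an unadjusted p under 0.05, with 1 in each direction. Over all tested genes, 23.2% had an unadjusted p under 0.05. The receptor gene Ifngr1 had a log2 fold change of 0.51 ± 0.21 (SE, edgeR adjusted p = 0.206) and the kinase gene Jak2 one of -0.40 ± 0.16 (SE, edgeR adjusted p = 0.200). Interferon-gamma itself, named after its values were seen, was close to the floor, with 5 and 9 counts of Ifng under saline and 19 and 10 after ADC/cmLumiOpto. The transcription factor gene Irf1, also named after its values were seen, had a log2 fold change of 0.01.

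Downstream, all 10 genes of endolysosomal processing had a log2 fold change above 0, against 52% of all tested genes. Their median was 0.26, against 0.03 over all tested genes. In edgeR's quasi-likelihood test 0 passed at an adjusted p and 1 had an unadjusted p under 0.05, against 23.2% of all tested genes. Ctsh, a lysosomal cysteine protease, was at 214 and 161 CPM in the saline samples and at 438 and 307 CPM in the ADC/cmLumiOpto samples. These groups did not overlap, unlike those of any class II member, and both treated samples lay above both saline samples in 28.1% of all tested genes. Its log2 fold change was 0.99 ± 0.24 (SE, edgeR adjusted p = 0.123), and it was called by DESeq2 (adjusted p = 0.00373) and by the edgeR exact test (adjusted p = 0.0149). Ifi30, the thiol reductase that unfolds antigens in lysosomes, had a log2 fold change of 0.46 ± 0.24 (SE, edgeR adjusted p = 0.288).

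On the T cell side, 7 of 8 partner and costimulation genes were tested, with 0 called, 0 at an unadjusted p under 0.05 and a median log2 fold change of 0.51. Cd40 and Cd86, costimulatory molecules of antigen-presenting cells, had log2 fold changes of 0.83 ± 0.38 (SE) and 0.86 ± 0.40 (SE). Cd4, the coreceptor that binds class II, was named after its values were seen and was at 8.06 and 1.35 CPM in the saline samples and at 7.25 and 2.58 CPM in the ADC/cmLumiOpto samples. The groups overlapped and sample 1 was the higher in each, as for 7 of the 8 class II genes.

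The 10 tested genes outside the list whose pattern over the 4 samples was most like the mean of the members were ranked by root mean square distance of centered log2 CPM. The nearest were Nnmt (0.0200), Ifi44 (0.0220) and Ifit1 (0.0481). Ifi44 and Ifit1 are interferon-induced genes, and Nnmt encodes nicotinamide N-methyltransferase. Serpina3g (0.0564), Mpeg1 (0.0666), a pore-forming protein of macrophages, and Ctsc (0.0770), a lysosomal protease, followed. The other 4 were 2810414N06Rik, ENSMUSG00000120093, Rab38 and Slc9a9. With 4 samples, such nearness is a description of these samples.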

How the data were processed

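Bulk RNA sequencing (poly-A selected, Illumina) was analyzed in 2 saline and 2 ADC/cmLumiOpto samples, grouped by the labels. The authors deposited raw counts per gene, whole numbers without normalization, for 56748 genes, together with a gene length. The methods name HISAT2 and edgeR, and the counting program is not given in the sources used here. The library's strand setting is not stated, so reads of overlapping opposite genes cannot be told apart.

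The 8 genes and all other lists were chosen with earlier results of these data known. In R 4.3.3, edgeR 4.0.16 was run with filterByExpr (minimum count 10, minimum total 15), TMM, glmQLFit and glmQLFTest, two-sided, with Benjamini-Hochberg adjustment over 15320 genes and a threshold of 0.05. The standard error is the log2 fold change divided by the square root of F. Sums of CPM are over all genes of a list. Genes named beyond the members are, for each list, up to 3 with the smallest p, and the 10 nearest in pattern. Others were named for their levels or counts, or after their values were seen, and not by p. Among them are Krt8, Sftpc, Ms4a1, Blk, Cd209a, Siglech, H2-Ob, Chil3, Abca3, Etv5, Ifng, Irf1 and Cd4. The fits were also run on simulated counts with the same dispersion for every gene, a simpler setting than these data. No result here rests on that run. Alternatives were DESeq2 1.42.0, library size without TMM, upper-quartile scaling, the exact test, other filters (1 count in total, or 10 in every sample), a replicate block, removal of a lowess trend on gene length (span 0.3), and each sample left out, in which the lone sample is assumed to vary like the other group. Gene positions were checked against GENCODE M21 (GRCm38): 0 of 8 members had the same start and end, and 1472 of 52073 genes did. Some genes of the lists are not reported here by name.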

Additional observations from a re-analysis of the deposited data

How the results depend on the processing

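The number of genes called over all tested genes, 0 in edgeR's quasi-likelihood test, was 1353 with DESeq2, 1170 with the exact test, 2259 without the filter on low counts (8.84% of 25563), 607 with the replicate block (3.96% of 15320) and between 0 and 206 with a sample left out (206 without saline sample 1). Of the 8 class II genes, 3 were called without the filter (edgeR's quasi-likelihood test, H2-Aa with adjusted p = 7.95e-05, H2-Ab1 with 2.56e-04 and H2-Eb1 with 8.21e-04) and 1 with the replicate block (H2-Ab1, log2 fold change 0.89, adjusted p = 0.0406). None was called with a sample left out or under any other alternative. Without the filter, the log2 fold changes of H2-Aa, H2-Ab1 and H2-Eb1 stayed at 0.98, 0.92 and 0.83. Their SE, 0.46, 0.62 and 0.55 with the filter, was 0.20 for each without it. The low adjusted p-values thus came with a smaller SE and not with a larger difference between the groups. The cause was not tested. Sample numbers are not said to mark a shared animal or batch, and the deviations of same-numbered samples correlated at 0.0985 over 15320 genes, which are not independent replicates.

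The members' median log2 fold change lay between -0.21 (without ADC/cmLumiOpto sample 1) and 1.30 (without saline sample 1) with a sample left out, and between 0.29 and 0.52 otherwise. With 10 counts required in every sample, H2-Oa dropped out. Upper-quartile scaling moved the median of all genes from 0.03 to 0.11. Ciita was at -0.0035 with the replicate block, and H2-DMb1 and H2-DMb2 were at -0.0491 and -0.0087 with the length trend removed. With a sample left out, log2 fold changes lay between -0.56 and 0.50 for Ciita, -0.24 and 1.28 for Cd74, -0.11 and 1.85 for H2-Ab1, -0.17 and 1.49 for H2-Eb1, -0.28 and 0.74 for H2-DMa, -0.48 and 0.72 for H2-DMb1, -1.07 and 1.32 for H2-Oa, -0.16 and 1.62 for H2-Ea, -0.41 and 0.73 for H2-DMb2, and -0.0055 and 1.01 for the immunoproteasome gene Psmb9. The same ranges were 0.25 to 0.74 for Ifngr1, 0.43 to 1.42 for Cd40, 0.41 to 1.35 for Cd86 and 1.55 to 4.24 for Clec9a. Ctsh, Clec9a, Sftpd and Cd3d were also called without the filter and with the replicate block. H2-Ea was called without the filter only. At 8 to 46 counts, H2-Oa is also limited by depth.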

Other observations

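MIF, the ligand of the invariant chain, and the co-receptors of that receptor complex were read in the same samples. Of the 5 genes in that list, 0 passed at an adjusted p in edgeR's quasi-likelihood test. In the same test 4 had an unadjusted p under 0.05, with 2 in each direction, against 23.2% of all tested genes. Mif was at 402 and 341 CPM in the saline samples and at 261 and 255 CPM in the ADC/cmLumiOpto samples, and its log2 fold change was -0.53 ± 0.16 (SE, edgeR adjusted p = 0.145). Cxcr4, a chemokine receptor of leukocytes and tumor cells, was at 21.6 and 11.4 CPM in the saline samples and at 37.6 and 30.0 CPM in the ADC/cmLumiOpto samples, and its log2 fold change was 1.03 ± 0.32 (SE, edgeR adjusted p = 0.146). For both genes the groups did not overlap, while those of Cd74 did. Both treated samples lay above both saline samples in 28.1% of all tested genes and below them in 28.8%.

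Class I presentation, the counterpart that displays cytosolic peptides, varied less than class II. The log2 range over the samples had a median of 0.69 over its 10 genes, against 1.84 over the 8 class II genes. None was called, 0 had an unadjusted p under 0.05 in edgeR's quasi-likelihood test, and the median log2 fold change was 0.20. Psmb9, an immunoproteasome subunit, had a log2 fold change of 0.58 ± 0.33 (SE, edgeR adjusted p = 0.329) and Nlrc5, the transactivator of class I genes, one of -0.24 ± 0.17 (SE, edgeR adjusted p = 0.423), both in edgeR's quasi-likelihood test.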
